A study of Mus musculus with 9 samples.

Results

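The nuclear genes of respiratory complexes II to V were taken as every protein-coding gene of the count table whose symbol belongs to the Sdh subunit genes, the Uqcr genes, Cyc1, Cycs, the Cox4 to Cox8 genes or the Atp5 genes. That rule found 50 genes of 56748, with 4 in complex II, 10 in complex III when cytochrome c is counted with it, 18 in complex IV and 18 in complex V, the ATP synthase. The 50 genes carry 49 symbols, because Atp5o stands for a pair of Ensembl genes, and the second of these (ENSMUSG00000116933) had no count in any library. Ndufa4, which is now counted with complex IV, does not match the rule and stays with the complex I genes here.

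Poly(A) RNA of whole liver was compared between male C57BL/6J mice given formoterol (n = 5) and mice given its DMSO vehicle (n = 4). Both groups ate a high-fat diet for 20 weeks that began at an age of 8 weeks and ended at 28 weeks, and injections of 1 mg/kg formoterol or of vehicle were given into the peritoneum each day for the last 4 weeks. Formoterol is a long-acting agonist of the beta-2 adrenergic receptor, which signals through cyclic AMP. No genotype differs between the groups, and no group on another diet enters the comparison. Libraries M46, M47, M48, M49 and M50 were read as formoterol and M56, M58, M59 and M60 as vehicle from the last letter of the column suffix and the group sizes, so every direction given here rests on that reading.

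The respiratory chain sits in the inner mitochondrial membrane. Complex II passes electrons from succinate to ubiquinone, complex III passes them on to cytochrome c, and complex IV hands them to oxygen. Complexes III and IV pump protons as they do so, and the ATP synthase uses the returning protons to turn a rotor and make ATP. All subunits of complex II are encoded in the nucleus, whereas complexes III, IV and V each combine nuclear subunits with a few made inside the mitochondrion. Hepatocytes depend on this chain for urea synthesis and gluconeogenesis. Nuclear respiratory factor 1 (NRF1), ETS factors such as GABP and the estrogen-related receptors (ERR) are known activators of many of these genes.

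The promoters of 4 members are shown because they carry the motifs of those activators in genes with different values in these livers: Atp5h and Uqcr11 were among the members with the smallest p of complexes V and III, whereas Uqcrc1 and Cycs were not. Each window runs from 250 bases before to 50 bases after the gene start, 5′ to 3′ on the gene's strand, from RefSeq on GRCm38.p6. Capitals mark matches to NRF1 (GCGCANGCG), ETS (CCGGAAGT), ERR (TNAAGGTCA), YY1 (AAGATGGCG) or the cyclic AMP response element CRE (TGACGTCA) on either strand, and overlapping matches run together.
Atp5h (chr11:115419870-115420169, minus strand): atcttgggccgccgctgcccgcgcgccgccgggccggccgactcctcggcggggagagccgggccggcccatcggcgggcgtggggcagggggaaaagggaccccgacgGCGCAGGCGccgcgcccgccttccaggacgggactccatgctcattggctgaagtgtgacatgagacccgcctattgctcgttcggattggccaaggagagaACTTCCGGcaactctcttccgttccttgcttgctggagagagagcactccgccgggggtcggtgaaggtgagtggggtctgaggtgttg
Uqcr11 (chr10:80406772-80407071, minus strand): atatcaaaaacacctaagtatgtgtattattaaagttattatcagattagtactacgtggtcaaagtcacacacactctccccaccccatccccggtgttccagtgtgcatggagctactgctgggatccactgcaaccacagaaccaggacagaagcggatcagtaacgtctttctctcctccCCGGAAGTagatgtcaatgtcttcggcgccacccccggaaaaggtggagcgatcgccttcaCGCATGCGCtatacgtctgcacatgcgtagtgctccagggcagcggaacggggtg
Uqcrc1 (chr9:108936398-108936697, plus strand): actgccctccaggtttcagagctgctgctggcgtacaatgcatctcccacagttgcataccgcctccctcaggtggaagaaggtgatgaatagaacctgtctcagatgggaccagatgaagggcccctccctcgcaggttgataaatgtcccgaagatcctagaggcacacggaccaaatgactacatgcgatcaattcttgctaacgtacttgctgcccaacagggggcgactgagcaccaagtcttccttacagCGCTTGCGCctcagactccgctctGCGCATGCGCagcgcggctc
Cycs (chr6:50566520-50566819, minus strand): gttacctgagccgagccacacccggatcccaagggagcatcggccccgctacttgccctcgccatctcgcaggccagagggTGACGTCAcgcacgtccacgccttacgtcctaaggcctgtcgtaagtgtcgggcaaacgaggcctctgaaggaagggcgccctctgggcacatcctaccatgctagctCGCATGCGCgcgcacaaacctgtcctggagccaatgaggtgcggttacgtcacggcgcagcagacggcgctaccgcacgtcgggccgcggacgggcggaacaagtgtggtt
Atp5h and Uqcr11 each held an NRF1 and an ETS match, Uqcrc1 held NRF1 matches alone, and Cycs held a CRE and an NRF1 match. These 4 promoters do not stand for all members. Cox8a held ETS matches at a log2 fold change (formoterol over vehicle) of 0.026, while Uqcr10 (0.75) and Cox6b1 (0.69) held none of these motifs. Whether the motifs go with the values was not tested.

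Of the 49 symbols, 37 matched a RefSeq promoter window. The NRF1 motif was present in 13 of these 37 genes (35.1%), against 7.03% of all 27025 genes with a window. It was found in 3 members of the ATP synthase rotor (Atp5c1, Atp5g2 and Atp5g3), in Atp5h, Atp5o, Atp5k and Atp5l, and in Cox6a1, Cycs, Sdha, Sdhd, Uqcr11 and Uqcrc1. The ETS motif was present in 4 members (10.8%, against 4.31% of all genes), namely Atp5h, Cox8a, Uqcr11 and Uqcrh. Each of ERR, YY1 and CRE was present in 2 members (5.41%), against 1.43%, 1.64% and 2.03% of all genes. The ERR matches were in Atp5g3 and Sdhd, the YY1 matches in Atp5j and Atp5j2, and the CRE matches in Cycs and Uqcrfs1. The Sp1 motif GGGCGG, which is not capitalised above, was present in 15 members (40.5%) and in 38.2% of all genes. Median GC content was 56.5% in the members' windows and 52.7% in all windows. A match describes the letters of the window and does not show that a factor binds there.

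Libraries held 12336665 to 20339665 counts. The share of counts from the mitochondrial genome ranged from 16.4 to 38.6% in the formoterol libraries, highest in M50, and from 23.4 to 34.0% in the vehicle libraries. The 10 hepatocyte markers, albumin and apolipoprotein A1 among them, were all detected, as a liver label calls for, and summed to 100840 to 142900 CPM (counts scaled for library size with TMM factors) in the formoterol libraries and 84623 to 99474 CPM in the vehicle libraries, ranges that do not overlap. Of these 10 markers, 6 had an unadjusted p under 0.05 in edgeR, all of them higher, where 9.03% of all genes tested were higher. Albumin made up most of the sum, with means of 85075 CPM with formoterol and 66918 CPM with vehicle, and its groups overlapped. Only 1 of the 10, apolipoprotein A1, had groups that did not overlap. Ttr, Pck1 and Tat had log2 fold changes of 0.080, 0.087 and −0.073. Summed endothelial markers ranged from 25.0 to 77.1 CPM with formoterol and from 61.8 to 80.8 CPM with vehicle, stellate and fibroblast markers from 70.8 to 346 CPM with formoterol and from 216 to 380 CPM with vehicle, and Kupffer and macrophage markers from 46.9 to 89.9 CPM with formoterol and from 65.7 to 108.5 CPM with vehicle. In each of these 3 lists formoterol library M46 was the lowest of the 9. In bulk tissue, fewer cells of a type and less RNA per cell cannot be told apart, and the part of these cell types in the results below was not tested.

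Genes of complexes III, IV and V were mostly higher in the formoterol livers than in the vehicle livers, whereas the median log2 fold change was 0.075 in complex II, 0.10 in the core proteins of complex III and −0.090 in the catalytic head of the ATP synthase. Sdhb of complex II, at 0.50, was among the members higher. Of the 50 members, 43 had enough counts to be tested and 37 of these had a positive log2 fold change (formoterol over vehicle). The median log2 fold change of the 43 was 0.47, against −0.014 over the 13042 genes tested. At an unadjusted p under 0.05 in edgeR's quasi-likelihood test, 27 of the 43 were higher, where 9.03% of all genes tested were, and 0 were lower, where 5.53% of all genes tested were. The members that were not higher by this measure were Sdha, Sdhc, Sdhd, Uqcrc1, Uqcrc2, Cyc1, Cycs, Cox5a, Cox7a1, Cox7a2l, Cox8a, Atp5a1, Atp5b, Atp5d, Atp5g2 and Atp5pb.

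After Benjamini-Hochberg adjustment over all genes, edgeR called 0 members, as it called 0 of the 13042 genes tested (0%), and the smallest adjusted p of a member was 0.159. DESeq2 called 8 of the 42 members to which it gave an adjusted p (background 1.96%), all higher: Uqcr10, Uqcr11, Uqcrq, Cox6b1, Atp5e, Atp5j2, Atp5h and Atp5j. With edgeR and no filter on low counts 8 members were called (background 0.794%), and limma-voom called 0, or 21 when libraries were weighted by quality (background 6.07%), all higher. Without formoterol library M49, edgeR called 12 members, all higher (background 3.47%): the 8 that DESeq2 called, and Cox6c, Cox7b, Cox7c and Atp5md.

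Library by library, the groups overlapped for most members. The lowest formoterol library lay above the highest vehicle library for 5 of the 43, Uqcr10, Uqcrb, Cox6b1, Atp5h and Atp5j, where 2.45% of all genes tested did the same. That count was 19 without vehicle library M60 (background 5.51%), 19 without formoterol library M49 (background 7.63%) and 8 without formoterol library M50 (background 4.16%). M46 had the highest value of the 9 libraries for 31 members and M48 for 6, and both are formoterol. M56, a vehicle library, had the lowest value for 25 members, and formoterol library M50 had it for 9. Leaving out M56 lowered the number of members at an unadjusted p under 0.05 to 18. The share of all genes tested was not taken for that fit, so the drop is not read as particular to the members. Without M56 the median log2 fold change was 0.37 over the members and −0.0061 over all genes.

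**Figure D1:**
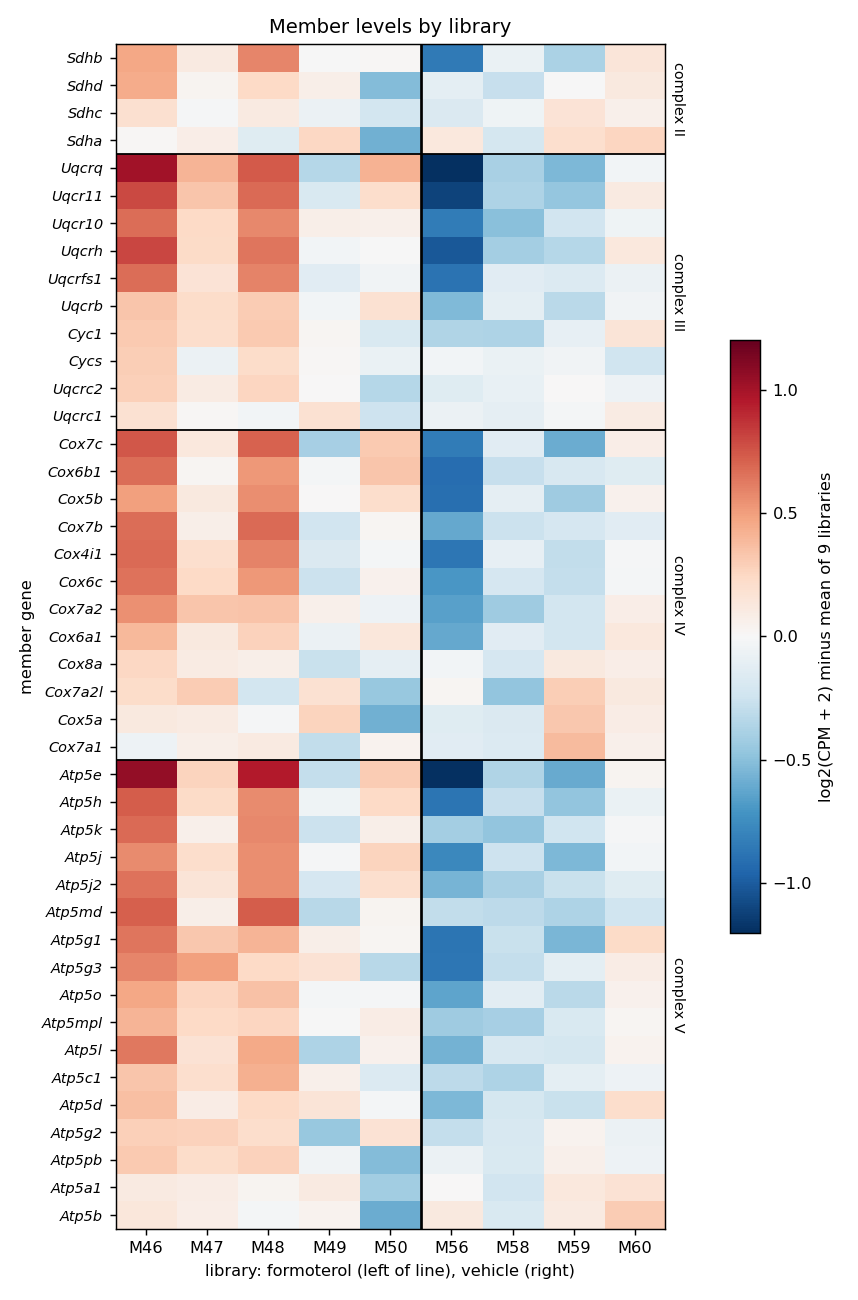
Level of each of the 43 tested members (rows, by complex) in each library (columns, 5 formoterol left of the line and 4 vehicle right of it), as log2(CPM + 2) minus the mean of the 9 libraries. M46 and M48 are the darkest red in most rows and M56 the darkest blue, while Sdha, Uqcrc1, Cox5a, Atp5a1 and Atp5b show no such split.

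The mean of log2(CPM + 2) over the 43 members, centred on the 9 libraries, was 0.48, 0.17, 0.37, −0.065 and −0.048 in M46, M47, M48, M49 and M50, against −0.52, −0.25, −0.17 and 0.033 in M56, M58, M59 and M60. The formoterol libraries M49 and M50 thus lay below vehicle library M60, and the groups overlapped. Gene length moved with this order. The 43 members had a median length of 1831 bp, against 4229 bp over all genes tested, and 31 of them lay in the shortest quartile of protein-coding genes (up to 2847.5 bp) and 0 in the longest.

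The 2905 other genes of that shortest quartile had centred means of 0.11, 0.054, 0.11, −0.020 and −0.019 in the formoterol libraries and −0.13, −0.068, −0.056 and 0.018 in the vehicle libraries, with M46 and M48 highest and M56 lowest as for the members. Their median log2 fold change was 0.14 and 18.2% of them were higher at an unadjusted p under 0.05, while the median of the longest quartile was −0.11. With per-library offsets for gene length, the members' median was 0.43, against 0.077 over all genes, and 24 were higher at an unadjusted p under 0.05 (background 11.2%). The members no longer under 0.05 were Uqcrb (log2 fold change 0.28 with offsets, 0.46 without), Cox6a1 (0.18 with, 0.37 without) and Atp5k (0.49 with, 0.72 without). When libraries were scaled by their totals alone, the median of all genes moved to −0.16 and that of the members to 0.31. The number of members higher at an unadjusted p under 0.05 was then 14 (background 3.58%).

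**Figure D2:**
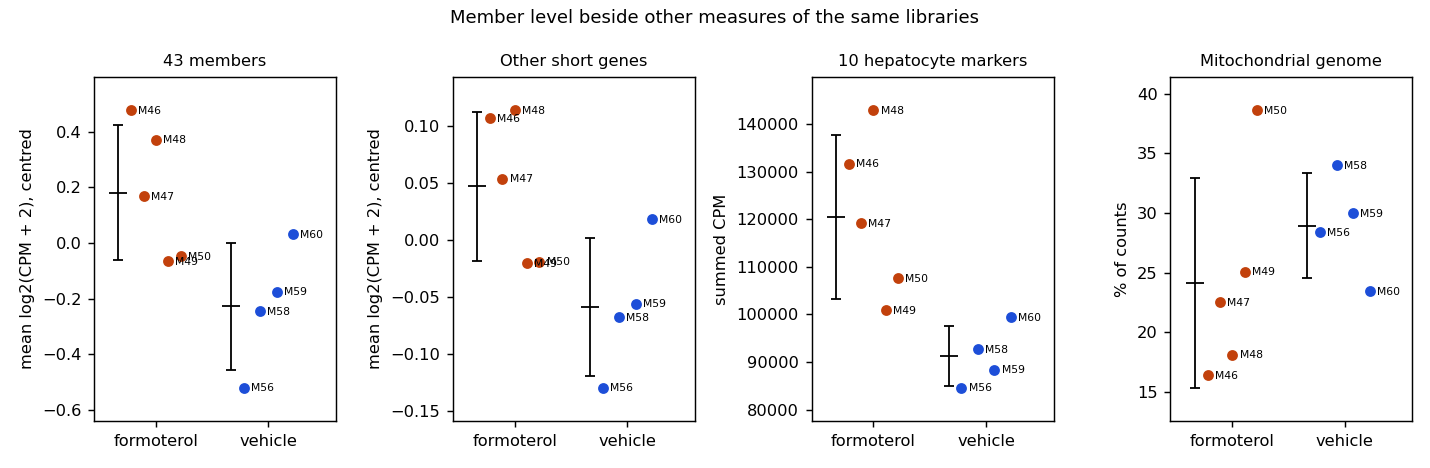
Each point is a library, with the group mean and SD beside it: the centred mean of log2(CPM + 2) over the 43 members and over 2905 other short genes, the summed CPM of 10 hepatocyte markers, and the share of counts from the mitochondrial genome in percent. M46 and M48 are the highest and M56 the lowest library in the first 2 panels, and the formoterol range of hepatocyte markers (100840 to 142900 CPM) lies above the vehicle range.

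In the values that follow, the 5 formoterol libraries are always in the order M46, M47, M48, M49 and M50 and the 4 vehicle libraries in the order M56, M58, M59 and M60. CPM are scaled with TMM factors, and means are given ± SD.

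Complex II is also the succinate dehydrogenase of the citric acid cycle, and its 4 genes had log2 fold changes of both signs. Their median log2 fold change was 0.075 and 1 of the 4 was higher at an unadjusted p under 0.05. That gene was Sdhb (ENSMUSG00000009863, chromosome 4, 140688514 to 140706504 on mm39), which encodes the iron-sulphur subunit. It had 304, 237, 329.9, 219 and 222 CPM with formoterol, against 121, 208, 169 and 242 CPM with vehicle. The 2 highest libraries were formoterol M48 and M46, M56 was the lowest, and M60 lay inside the formoterol range (log2 fold change 0.50 with SE 0.21, edgeR adjusted p = 0.279). Sdha, the flavoprotein that oxidises succinate, had 143, 149, 128, 168 and 94.2 CPM with formoterol, against 154, 121, 163 and 169 CPM with vehicle. Its lowest value was in formoterol library M50 and the groups overlapped (log2 fold change −0.16 with SE 0.17, adjusted p = 0.725 by edgeR).

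The membrane anchors Sdhc and Sdhd hold the heme of complex II and its ubiquinone site. Sdhd had 87.9, 65.2, 75.8, 67.3 and 43.9 CPM with formoterol, against 58.9, 52.3, 63.7 and 69.4 CPM with vehicle, which spans M46 as the highest library and M50 as the lowest (log2 fold change 0.15 with SE 0.18). Sdhc had 163, 141, 154, 136 and 123 CPM with formoterol and 127, 138, 160.4 and 149.6 CPM with vehicle, and the group means, 143 ± 15.7 and 144 ± 14.5 CPM, differed by less than 1 SD of either group. Its log2 fold change of −0.0037 was positive with DESeq2, with RLE factors, with length offsets and without any 1 of M49, M50, M59 or M60.

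Complex III had 10 tested genes, of which 6 were higher at an unadjusted p under 0.05, with a median log2 fold change of 0.51. The small subunits without a redox group stood at the top. All 5 of them (Uqcr10, Uqcr11, Uqcrb, Uqcrh and Uqcrq) were higher at an unadjusted p under 0.05, with a median of 0.75, or 0.60 with length offsets. Uqcr10 (ENSMUSG00000059534, chromosome 11, 4651973 to 4654342 on mm39), a small subunit next to cytochrome c1, had 80.4, 59.1, 75.0, 52.2 and 51.8 CPM with formoterol, against 26.8, 34.6, 41.9 and 47.7 CPM with vehicle. Every formoterol library lay above every vehicle library, by a gap of a few CPM between M50 and M60 (log2 fold change 0.75 with SE 0.19, edgeR adjusted p = 0.159).

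TPM are counts divided by gene length and then scaled to the same total in each library, without TMM factors. By that measure Uqcrq (ENSMUSG00000044894, chromosome 11, 53318749 to 53321658 on mm39), which lies close to cytochrome b, was the most abundant of the 5. Uqcrq had 544 ± 165 TPM with formoterol and 309 ± 108 TPM with vehicle. It had 818, 541, 677, 320.2 and 544 CPM with formoterol, against 168, 311, 279 and 396 CPM with vehicle. M49 and vehicle library M60 made the groups overlap (log2 fold change 1.01 with SE 0.27, edgeR adjusted p = 0.172), and without M49 the log2 fold change was 1.16 (edgeR adjusted p = 0.0143). Uqcr11 (ENSMUSG00000020163, chromosome 10, 80238831 to 80242664 on mm39), whose promoter is shown above, had 133, 96.3, 123, 66.7 and 88.2 CPM with formoterol, against 34.1, 58.2, 54.4 and 82.1 CPM with vehicle. Again M49 fell below M60 and M56 was the lowest library (log2 fold change 0.82 with SE 0.25, edgeR adjusted p = 0.185).

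Uqcrh, the acidic hinge protein that helps cytochrome c1 meet cytochrome c, had 133, 88.7, 119, 73.8 and 75.1 CPM with formoterol, against 36.3, 56.2, 58.9 and 82.7 CPM with vehicle. M49 and M50 lay below M60, while M46, M47 and M48 lay above all vehicle libraries (log2 fold change 0.74 with SE 0.24, edgeR adjusted p = 0.195). Uqcrb, the fifth small subunit, averaged 176 ± 17.0 CPM with formoterol and 129 ± 19.6 CPM with vehicle, and its groups did not overlap, with M49 at 149 CPM just above M60 at 148 CPM.

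The redox subunits and core proteins of complex III had median log2 fold changes of 0.31 and 0.10. Uqcrfs1, the Rieske iron-sulphur protein, averaged 275 ± 70.8 CPM with formoterol and 185 ± 43.2 CPM with vehicle (log2 fold change 0.57 with SE 0.21). Its lowest library was M56, at 121 CPM. Cyc1, cytochrome c1, had a log2 fold change of 0.31 (SE 0.16), and Cycs, the cytochrome c that shuttles electrons to complex IV, 0.18 (SE 0.14). Uqcrc1 and Uqcrc2, the large core proteins that resemble a mitochondrial processing peptidase, had 0.053 (SE 0.14) and 0.15 (SE 0.15), and Uqcrc1 was negative (−0.091) when libraries were scaled by their totals alone.

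Complex IV had 12 tested genes, of which 8 were higher at an unadjusted p under 0.05, with a median log2 fold change of 0.56, or 0.41 with length offsets. Cox6b1 (ENSMUSG00000036751, chromosome 7, 30316286 to 30325576 on mm39), which bridges the complex on the intermembrane side, had 287, 183, 259, 177 and 227 CPM with formoterol, against 94.9, 148, 157 and 163 CPM with vehicle. The groups did not overlap, M49 being the lowest formoterol library and M60 the highest vehicle library (log2 fold change 0.69 with SE 0.20, edgeR adjusted p = 0.173). Cox7a2 had 105, 89.7, 90.6, 74.0 and 68.0 CPM with formoterol, against 44.6, 52.5, 60.7 and 75.1 CPM with vehicle. Here M49 and M50 fell below vehicle library M60 (log2 fold change 0.55 with SE 0.18, edgeR adjusted p = 0.194).

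Cox5b, a zinc-binding subunit on the matrix side, had 253, 195, 264, 179 and 208 CPM with formoterol, against 94.6, 166, 133 and 185 CPM with vehicle. M49 lay below M60, and M56 was the lowest library (log2 fold change 0.60 with SE 0.20, edgeR adjusted p = 0.203). A near-identical copy, Cox5b-ps, held 92 to 252 counts a library, so reads may have been divided between the genes and the value of Cox5b is uncertain. Cox7b, an X-linked subunit, had 299, 197, 301, 159 and 191 CPM with formoterol, against 121, 156, 162 and 171 CPM with vehicle. M46 and M48 stood above the other 7 libraries, and M49 lay among the vehicle libraries (log2 fold change 0.59 with SE 0.20, edgeR adjusted p = 0.22). Cox6c and Cox7c were also higher at an unadjusted p under 0.05, with log2 fold changes of 0.57 (SE 0.20) and 0.69 (SE 0.25).

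Cox5a, Cox7a2l, Cox7a1 and Cox8a had log2 fold changes near or below 0. Cox5a, the partner of Cox5b on the matrix side, had 43.5, 43.1, 39.7, 48.5 and 26.2 CPM with formoterol, against 35.9, 35.3, 50.5 and 42.8 CPM with vehicle. The lowest library, M50, and the second highest, M49, were both formoterol (log2 fold change −0.034 with SE 0.18, edgeR adjusted p = 0.954), and the sign was positive without M50 or without M59. Cox7a2l, which helps join complexes III and IV and of which C57BL/6 mice carry a shortened form, averaged 33.1 ± 7.49 CPM with formoterol and 32.6 ± 7.27 CPM with vehicle. Its log2 fold change of 0.016 (SE 0.20) was negative with upper-quartile or library-total scaling, with length offsets and without any 1 of M46, M47, M49 or M58.

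Several subunits of complex IV exist as tissue isoforms, and the liver or general isoform carried nearly all counts of each pair. Cox4i1, the general form of the regulatory subunit 4, had 572, 409, 539, 316 and 349.5 CPM with formoterol, against 194, 333, 290.0 and 352 CPM with vehicle, with M49 and M50 no higher than M60 (log2 fold change 0.58 with SE 0.22, edgeR adjusted p = 0.242). Its lung and hypoxia form, Cox4i2, had 26 counts over the 9 libraries, against 53509 for Cox4i1. Cox6a1, the liver form of subunit 6a, had 268, 222, 247, 194 and 223 CPM with formoterol and 133, 185, 174 and 222 CPM with vehicle, again with M49 below M60 (log2 fold change 0.37 with SE 0.17, edgeR adjusted p = 0.323). With length offsets its log2 fold change was 0.18 (unadjusted p = 0.254). Cox6a2, the heart and muscle form, had 12 counts in M49 and 0 in the other 8 libraries. Of the 4 muscle markers, Acta1, Myh7 and Ckm were at 0 in all 9 libraries, and Tnnt3 had 0.097 CPM in M49 and 0 in the other 8. The part of other tissue in the Cox6a2 counts of M49 was not tested.

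Cox6b2, the testis form that pairs with Cox6b1, had 12 counts over the 9 libraries, against 27335 for Cox6b1. Cox7a1, the heart and muscle form that pairs with Cox7a2, was the single such form with enough counts to be tested, at 1 to 26 counts a library. It had 0.407, 0.638, 0.713, 0.0487 and 0.588 CPM with formoterol, against 0.291, 0.247, 1.27 and 0.634 CPM with vehicle, with M49 the lowest library and M59 the highest (log2 fold change −0.40 with SE 0.71, edgeR adjusted p = 0.841). Cox8a, the general form of subunit 8, had 101, 90.9, 89.0, 69.9 and 78.3 CPM with formoterol, against 82.7, 73.2, 91.9 and 89.3 CPM with vehicle, and M49 was its lowest library (log2 fold change 0.026 with SE 0.14, edgeR adjusted p = 0.957). Its log2 fold change was negative with upper-quartile or library-total scaling, with length offsets (−0.19) and without any 1 of M46, M47 or M58. Cox8b, the heart and muscle form, had 1 count in all, in M50, and the testis forms Cox7b2 and Cox8c had 0.

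Complex V had 17 tested genes, of which 12 were higher at an unadjusted p under 0.05, with a median log2 fold change of 0.47, or 0.49 with length offsets. Over all genes tested the median was −0.014, or 0.077 with length offsets, so it rose with the offsets too. Genes of the stalks, the rotor ring and the membrane part made up these 12, and neither gene of the catalytic head was among them. Atp5h (ENSMUSG00000034566, chromosome 11, 115306515 to 115310788 on mm39), subunit d of the peripheral stalk that keeps the head from turning, had 415, 294, 370.2, 241 and 295 CPM with formoterol, against 135, 206, 179 and 236 CPM with vehicle. All formoterol libraries lay above all vehicle libraries, with M49 at 241 CPM next to M60 at 236 CPM (log2 fold change 0.77 with SE 0.20, edgeR adjusted p = 0.159). Atp5j (ENSMUSG00000022890, chromosome 16, 84624754 to 84632513 on mm39), coupling factor 6 of the same stalk, had 311, 243, 309, 208 and 253 CPM with formoterol, against 121, 176, 143 and 205 CPM with vehicle. These groups did not overlap either, and the nearest libraries were again M49 and M60 (log2 fold change 0.71 with SE 0.18, edgeR adjusted p = 0.165).

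The peripheral stalk has another pair of measured genes. Atp5o, the oligomycin-sensitivity protein at the tip of the stalk, averaged 85.1 ± 13.2 CPM with formoterol and 61.6 ± 12.4 CPM with vehicle (log2 fold change 0.47 with SE 0.17). Atp5pb, subunit b, which forms the length of the stalk, averaged 190.3 ± 41.3 CPM with formoterol and 172 ± 11.9 CPM with vehicle (log2 fold change 0.14 with SE 0.17), and its log2 fold change was −0.0073 under library-total scaling.

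All 5 membrane subunits tested (Atp5j2, Atp5k, Atp5l, Atp5md and Atp5mpl) were higher at an unadjusted p under 0.05, with log2 fold changes from 0.46 for Atp5l to 0.72 for Atp5k. Most of them sit where ATP synthase dimers bend the inner membrane. Atp5j2, subunit f, had 176, 124, 165, 96.3 and 128 CPM with formoterol, against 74.7, 84.6, 92.3 and 100.2 CPM with vehicle. The only formoterol library inside the vehicle range was M49 (log2 fold change 0.65 with SE 0.18, edgeR adjusted p = 0.173). Without M49 the log2 fold change of Atp5j2 was 0.75 (edgeR adjusted p = 0.0191).

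The central stalk turns inside the head. Atp5e, its epsilon subunit, had 172, 98.4, 159, 66.3 and 101 CPM with formoterol, against 30.5, 63.0, 52.9 and 83.1 CPM with vehicle, the largest log2 fold change of the 43 members (log2 fold change 1.06 with SE 0.32, edgeR adjusted p = 0.191). M46 and M48 were far above any vehicle library, while M49 lay inside the vehicle range. Atp5c1, the gamma subunit that forms the shaft, averaged 313 ± 49.3 CPM with formoterol and 237 ± 25.0 CPM with vehicle (log2 fold change 0.40 with SE 0.16), and Atp5d, the delta subunit, 147 ± 15.2 CPM with formoterol and 116 ± 26.3 CPM with vehicle (log2 fold change 0.35 with SE 0.16).

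The catalytic head makes ATP and consists of alternating alpha and beta subunits. Atp5a1, the alpha subunit, had 393, 388, 373, 392 and 273 CPM with formoterol, against 366, 311, 397 and 410.5 CPM with vehicle. Apart from M50, the formoterol libraries lay inside the vehicle range (log2 fold change −0.029 with SE 0.16, edgeR adjusted p = 0.955), and the log2 fold change was positive with quality weights (0.0095), with length offsets and without any 1 of M50, M59 or M60. Atp5b, the beta subunit, had 266, 257, 238, 249 and 160.1 CPM with formoterol, against 264, 214, 262 and 299.9 CPM with vehicle. M50 was again the lowest of the 9 and M60 the highest (log2 fold change −0.15 with SE 0.17, edgeR adjusted p = 0.732), and it stayed negative when any 1 library was left out (−0.23 to −0.048).

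**Figure D3:**
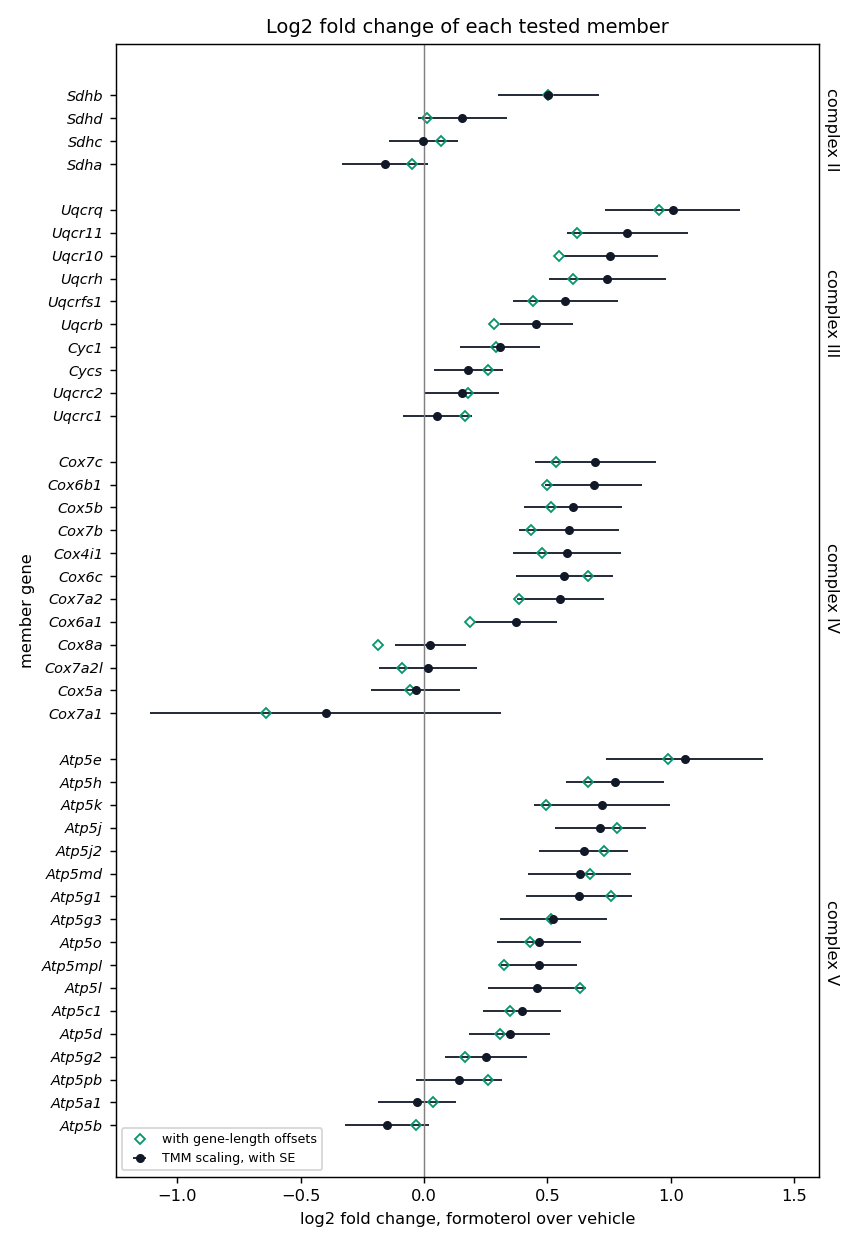
Log2 fold change (formoterol over vehicle) of each tested member with its standard error (black points and lines) and with gene-length offsets (open green diamonds), grouped by complex. Uqcrq, Uqcr11 and Uqcr10 of complex III and Atp5e and Atp5h of complex V lie near the top of the scale at 0.75 to 1.06. The black points of Sdha, Sdhc, Cox5a, Cox7a1, Atp5a1 and Atp5b lie at or left of 0, with Cox7a1 furthest left at −0.40.

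The rotor ring in the membrane is built from subunit c, which Atp5g1, Atp5g2 and Atp5g3 encode with different import sequences and the same mature protein. Atp5g1 had 234, 187, 199, 157 and 151 CPM with formoterol, against 80.5, 124, 101 and 175 CPM with vehicle, with M49 and M50 below vehicle library M60 (log2 fold change 0.63 with SE 0.21, edgeR adjusted p = 0.215). Atp5g2 had 57.9, 57.3, 54.9, 33.9 and 53.1 CPM with formoterol, against 38.3, 40.9, 48.5 and 44.8 CPM with vehicle, and the other 4 formoterol libraries lay above all vehicle libraries while M49 lay below them (log2 fold change 0.25 with SE 0.17, edgeR adjusted p = 0.513). Atp5g3 had 345, 323, 271, 258 and 182 CPM with formoterol, against 125, 187, 211 and 243 CPM with vehicle. Its groups overlapped, with M50 below 3 of the 4 vehicle libraries (log2 fold change 0.52 with SE 0.22, edgeR adjusted p = 0.28).

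Within a library, no share of the subunit c genes differed at the threshold of 0.05. Atp5g1 gave 36.4 ± 2.46% of their summed counts with formoterol and 33.5 ± 4.13% with vehicle (two-sided exact permutation p = 0.278, 0.417 after Benjamini-Hochberg adjustment over the 3 shares). The share of Atp5g2 was 10.2 ± 2.29% with formoterol and 12.6 ± 2.59% with vehicle (exact permutation p = 0.175, adjusted 0.417). Atp5g3, the most abundant of them per length, gave 53.5 ± 4.29% with formoterol and 53.9 ± 3.20% with vehicle (exact permutation p = 0.857). With a library left out, the difference between the groups ran from 1.03 percentage points without M59 to 4.29 without M60 for Atp5g1 (2.85 with all libraries), from −3.41 without M60 to −1.39 without M56 for Atp5g2 (−2.43 with all), and from −1.44 without M49 to 1.18 without M50 for Atp5g3. With all libraries the test cannot give a p below 0.00794.

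Subunits of 1 complex are needed in fixed proportions, so ratios within a library were compared as a description. These are ratios of summed CPM, not per length, and are read only between libraries. The log2 ratio of the 5 small subunits of complex III to its core proteins Uqcrc1 and Uqcrc2 was 1.84, 1.53, 1.75, 0.95 and 1.84 in the formoterol libraries, against 0.31, 1.003, 0.80 and 1.22 in the vehicle libraries. M49 was inside the vehicle range and the other formoterol libraries were above it. Group means were 1.58 ± 0.37 with formoterol and 0.84 ± 0.39 with vehicle.

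In the ATP synthase, the log2 ratio of the 4 tested peripheral stalk genes to the head genes Atp5a1 and Atp5b was 0.67, 0.37, 0.70, 0.12 and 0.78 with formoterol, against −0.41, 0.21, −0.22 and −0.044 with vehicle. M49 was the only formoterol library below vehicle library M58. The ratio of the 5 membrane subunits to the head averaged −0.97 ± 0.41 with formoterol and −1.60 ± 0.18 with vehicle, with M49 again inside the vehicle range. For complex II the log2 ratio of Sdhb to Sdha averaged 0.95 ± 0.41 with formoterol and 0.25 ± 0.50 with vehicle. Sdhb and Sdha have the highest and the lowest log2 fold change of the 4 genes, so a higher ratio with formoterol follows from their choice. In complex III the small subunits and the core proteins have the highest and the lowest group median (0.75 and 0.10). In the ATP synthase the head has the lowest group median (−0.090), and the membrane subunits (0.63) and peripheral stalk (0.59) have the highest. Higher ratios with formoterol follow from these choices as well. Sdhb is 2239 bp long and Sdha 4126 bp, and their log2 fold changes with length offsets were 0.50 and −0.049. The genes on top of these ratios are in part shorter than those below: the median length was 876 bp for the small subunits of complex III and 3343.5 bp for its core proteins, 2551 bp for the peripheral stalk and 2755 bp for the membrane subunits against 3686 bp for the head. With length offsets the median log2 fold changes were 0.60 and 0.17 in complex III, and 0.55 for the peripheral stalk and 0.63 for the membrane subunits against 0.0021 for the head.

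**Figure D4:**
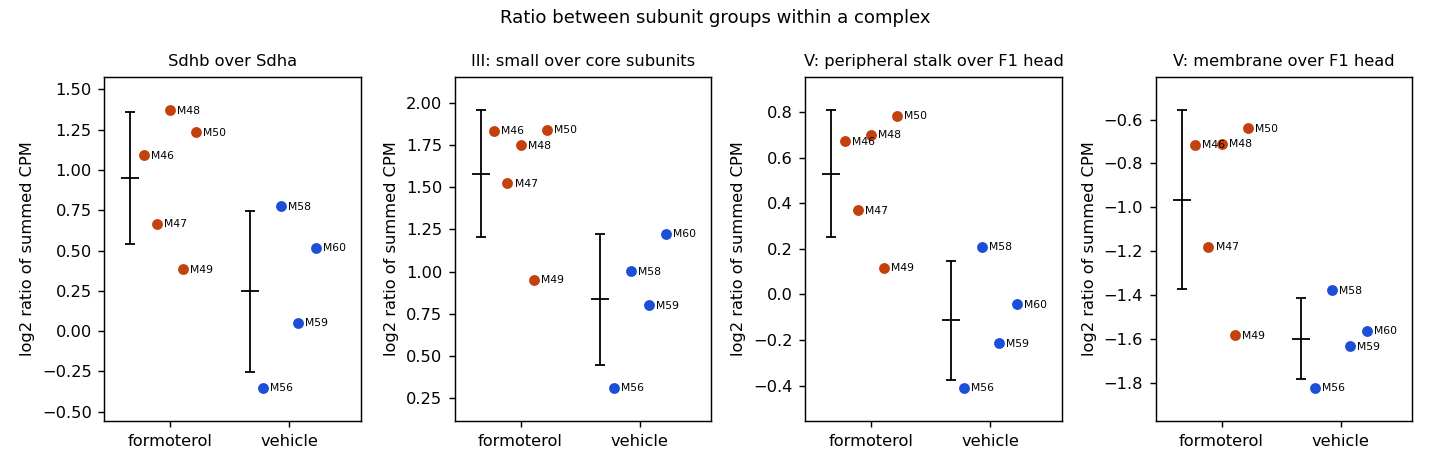
Each point is a library, with the group mean and SD beside it: the log2 ratio of Sdhb to Sdha, of the small subunits to the core proteins of complex III, and of the peripheral stalk and the membrane subunits to the F1 head of the ATP synthase. In each panel the mean of the formoterol libraries is higher and M49 is the lowest of them. Each ratio sets genes or groups with high log2 fold changes over those with the lowest in their complex. The higher means follow from that choice.

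Summed over its genes, complex II had 698, 592, 687, 591 and 483 CPM in the formoterol libraries and 461, 520, 555 and 631 CPM in the vehicle libraries. The highest 2 libraries were formoterol, and the ranges overlapped widely. Complex III with cytochrome c summed to 1455 to 2398 CPM with formoterol and 1009 to 1525 CPM with vehicle, complex IV to 1525 to 2519 CPM with formoterol and 1031 to 1682 CPM with vehicle, and complex V to 2317 to 3435 CPM with formoterol and 1866 to 2602 CPM with vehicle. In complexes III, IV and V, M46, M47 and M48 lay above all vehicle libraries, and M49 lay below M60. All 50 members together made up 0.70 ± 0.12% of counts with formoterol and 0.58 ± 0.097% with vehicle. These shares also move with the mitochondrial share of counts. Of the counts outside the mitochondrial genome, the members made up 0.92 ± 0.061% with formoterol and 0.81 ± 0.10% with vehicle, and the groups overlapped.

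**Figure D5:**
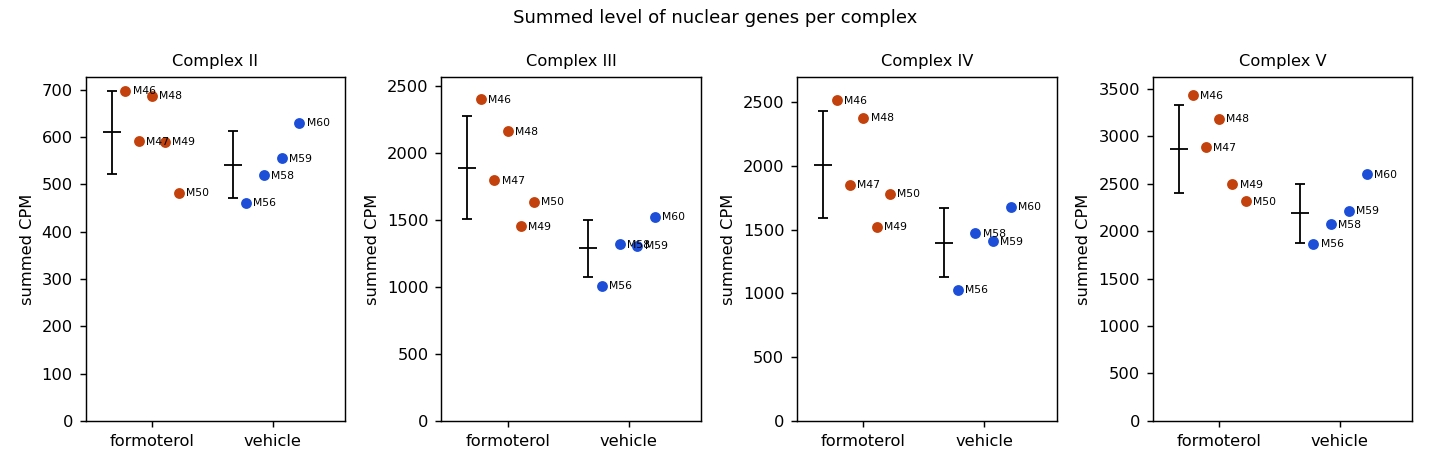
Summed CPM of the nuclear genes of each complex in each library (points), with the group mean and SD beside them, on axes that start at 0. M46 and M48 are the highest libraries in each panel, and the ranges of the groups overlap in each panel.

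Levels were also compared per length, in TPM, with the gene lengths of the table, which may include exons that liver rarely uses. Cox6a1 was the most abundant member at 572 ± 83.2 TPM with formoterol and 499 ± 115 TPM with vehicle, followed in the formoterol livers by Cox6b1 (555 ± 112 TPM, against 389 ± 85.9 TPM with vehicle) and Uqcrq. The means of these 3 genes lie within 1 SD of each other in the formoterol livers. The least abundant tested member was Cox7a1, at 1.49 ± 0.827 TPM with formoterol and 2.23 ± 1.67 TPM with vehicle, and the next was Atp5k, at 20.3 ± 6.83 TPM with formoterol and 14.0 ± 3.72 TPM with vehicle. Among the genes of the head, Atp5a1 had 206 ± 54.0 TPM with formoterol and 234 ± 41.5 TPM with vehicle.

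The partner subunits made in the mitochondrion were read from the same fit. Of the 6 such genes in complexes III, IV and V, 1 was higher at an unadjusted p under 0.05, 3 had a negative log2 fold change, and the median was 0.15. The gene with the smallest p, mt-Co3 of complex IV, had 1116, 2057, 2447, 644 and 5559.8 CPM with formoterol and 1220.0, 1037, 998 and 849 CPM with vehicle, with M49 the lowest of the 9 libraries and M50 the highest (log2 fold change 1.21 with SE 0.54). Next came mt-Atp8 of the ATP synthase (log2 fold change 1.61 with SE 0.89), whose reading frame overlaps that of mt-Atp6, so its value is uncertain. Vehicle means of the 6 genes lay far apart, at 109390 CPM for mt-Co1 and 47668 CPM for mt-Cytb. They were 4235 CPM for mt-Atp6, 1026 CPM for mt-Co3, 982 CPM for mt-Co2 and 124 CPM for mt-Atp8. The reason was not tested, so the levels of these genes are uncertain, and the ratios below are read only between libraries. The log2 ratio of nuclear (without Cycs) to mitochondrial transcripts averaged −4.69 ± 0.74 with formoterol and −5.39 ± 0.37 with vehicle in complex III, −5.66 ± 0.72 with formoterol and −6.31 ± 0.46 with vehicle in complex IV, and 0.23 ± 1.11 with formoterol and −0.95 ± 0.61 with vehicle in complex V. The groups overlapped in all 3, with formoterol library M50 below every vehicle library in complexes III and IV, and M50 also had the highest mitochondrial share of counts.

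Assembly factors put the subunits and cofactors together, and their counts are read against the 9.03% of all genes tested that were higher and the 5.53% that were lower at an unadjusted p under 0.05. For complex II, 2 of 4 had an unadjusted p under 0.05, both higher (median log2 fold change 0.49). They were Sdhaf1, an iron-sulphur cluster factor for Sdhb (8.24 ± 1.34 CPM with formoterol, 4.95 ± 1.23 CPM with vehicle), and Sdhaf3, which also serves Sdhb (9.20 ± 2.69 CPM with formoterol, 5.79 ± 0.96 CPM with vehicle). For complex III, 1 of 7 tested genes (10 symbols listed) was higher and 0 lower, with a median of 0.37, a count near that background. That gene was Uqcc3, which stabilises cytochrome b (log2 fold change 0.73 with SE 0.23), and Bcs1l, which inserts the Rieske protein, came next (log2 fold change 0.37 with SE 0.17).

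For complex IV, 8 of 23 tested assembly genes (27 symbols listed) were higher at an unadjusted p under 0.05 and 1 was lower, with a median of 0.33. The smallest p belonged to Cmc1, which handles the newly made mt-Co1 protein. It had 21.2, 17.0, 20.4, 15.4 and 15.5 CPM with formoterol, against 9.44, 9.79, 10.1 and 13.0 CPM with vehicle. The groups did not overlap (log2 fold change 0.76 with SE 0.17, edgeR adjusted p = 0.159). Higd1a, a small hypoxia-induced protein that binds complex IV, averaged 39.9 ± 7.01 CPM with formoterol and 22.1 ± 7.49 CPM with vehicle, and its groups did not overlap. The lower gene, picked out after its value was seen, was Coa5 (log2 fold change −0.39 with SE 0.15). Its groups did not overlap either, with every formoterol library below every vehicle library. Of the 23 tested genes, 3 had groups without overlap with formoterol higher and 1 with formoterol lower. Over the 13042 genes tested these numbers were 320 and 311. For the ATP synthase, 1 of 7 tested genes was higher and 0 lower (median 0.16), again near the background, namely Tmem242, a factor that helps build the c-ring (log2 fold change 0.46 with SE 0.18), followed by Dmac2l (log2 fold change 0.38 with SE 0.21).

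Other enzymes of the same organelle give a scale for these values. Of 14 citric acid cycle genes outside complex II, 1 was higher and 1 was lower at an unadjusted p under 0.05, with a median log2 fold change of −0.011. Fh1, the fumarase that acts just after complex II, averaged 253 ± 39.9 CPM with formoterol and 195 ± 20.9 CPM with vehicle (log2 fold change 0.38 with SE 0.16). Of the carriers that bring phosphate and ADP to the ATP synthase, 3 were tested and 0 differed at an unadjusted p under 0.05, with Slc25a5 at −0.065 (SE 0.14) and Slc25a4 at 0.22 (SE 0.44). Complex I, the entry point for electrons from NADH, had 25 of 38 tested nuclear genes higher and 0 lower, with a median of 0.52. Its genes with the smallest p were Ndufa11 (log2 fold change 0.69 with SE 0.18) and Ndufv3 (log2 fold change 0.59 with SE 0.16). Whether these lists differ from the members was not tested.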

How the data were processed

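Poly(A) RNA of liver was measured in 9 libraries, 5 formoterol and 4 vehicle, each read as the liver of a different mouse, and p-values measure no more than the spread among these libraries. The authors deposited raw counts, whole numbers for each Ensembl gene with no normalization, with coordinates on mm39 and a gene length. Per the submitters' processing notes, HISAT2 2.0.5 and DESeq2 were used and the build was mm39. Which counter, strand option and annotation release made the counts is not given in the sources, so reads of overlapping, antisense or near-identical genes cannot be told apart. Columns carry animal codes and a group suffix, and 0 columns were left unused.

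From these counts, CPM with TMM factors, TPM with the table's lengths, and log2 fold changes (formoterol minus vehicle) with standard errors (SE) were computed. The main test was edgeR 4.0.16 (R 4.3.3, robust quasi-likelihood) on the 13042 genes kept by filterByExpr (minimum count 10, minimum total 15), with Benjamini-Hochberg adjustment over them and a threshold of 0.05. Alternatives were DESeq2 1.42.0, RLE, upper-quartile and no scaling factors, removal of mitochondrially encoded genes, no filter, limma-voom 3.58.1 with and without quality weights, per-library loess offsets for gene length (span 0.3, prior count 2), and each library left out. The alternative of leaving out each library in the count of groups that do not overlap was chosen after seeing the data. The check for libraries far from the rest was also widened after seeing the data, from the members to list genes and library summaries. Shares of the subunit c genes were compared by exact permutation tests, since DESeq2 and edgeR test levels and not shares. Scripts were tested on simulated data. In that check DESeq2, an alternative only, was allowed a larger share of false calls than edgeR and limma-voom. Libraries of a group differed by more than sampling noise in each pair (chi-square per degree of freedom at least 24.3).

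The members and the gene lists were chosen with earlier results of these data known. Described in full are the 4 tested members of each complex with the smallest p, each tested member with a negative log2 fold change, the subunit c genes and the tissue isoform pairs of complex IV; from each list, the 2 tested genes with the smallest p. A gene of the citric acid cycle list that this rule picks is not reported here. Other members are given by range or count.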

Additional observations from a re-analysis of the deposited data

Results flagged for a closer look

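Within each group of libraries, the highest and lowest value of each tested member, of the genes named from the pathway lists, and of the summed levels, shares, scores and ratios was compared with the rest, in 156 groups of 4 or 5 libraries. A single library stood far below the others in 6 of them, and none stood far above. Chance sets apart about 1 in 20 such groups. Atp5a1 had 273 CPM in formoterol library M50, against 373 to 393 CPM in the other 4 formoterol libraries. Atp5b, its partner in the catalytic head, had 160.1 CPM in M50, against 238 to 266 CPM in the other 4. Atp5g2 of the rotor ring had 33.9 CPM in formoterol library M49, against 53.1 to 57.9 CPM in the other 4. Uqcrfs1, the Rieske protein of complex III, had 121 CPM in vehicle library M56, against 201 to 215 CPM in the other 3 vehicle libraries. Outside the members, Slc25a5, an ADP/ATP carrier, had 209 CPM in formoterol library M50, against 272 to 295 CPM in the other 4 formoterol libraries. Ndufa11, a complex I subunit, had 18.9 CPM in vehicle library M56, against 32.2 to 33.2 CPM in the other 3 vehicle libraries.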

How the results depend on the processing

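The number of members called higher was 0 with edgeR on all libraries, 8 with DESeq2, 8 with no filter on low counts, 21 with limma-voom and quality weights, and 0 to 12 when each library was left out, with 12 without M49. At an unadjusted p under 0.05, the number higher was 14 with library totals only (background 3.58%) and 18 to 29 with a library left out. The share of all genes was not taken for the fits with a library left out, so that range has no background beside it. The number whose groups did not overlap ranged from 5 to 19 with a library left out. The members' median log2 fold change ranged from 0.37 without M56 to 0.62 without M60. Library totals lowered the median of all genes to −0.16, and the members' median then lay 0.47 above it, against 0.48 with TMM. Over the settings, this distance was smallest with length offsets, at 0.35, and largest without M60, at 0.63. Without M56 it was 0.37.

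Signs turned for values near 0. With library totals Cox8a was −0.14, Cox7a2l −0.13, Uqcrc1 −0.091, Atp5pb −0.0073 and the complex II median −0.075. With upper-quartile factors Cox8a was −0.020 and Cox7a2l −0.029. Sdhc was 0.0063 with DESeq2, 0.0067 with RLE factors and 0.070 with length offsets. Length offsets gave Atp5a1 0.036, Cox8a −0.19 and Cox7a2l −0.088, and quality weights gave Atp5a1 0.0095. With a library left out, Sdhc ranged from −0.064 to 0.054, Cox8a from −0.049 to 0.088, Cox7a2l from −0.12 to 0.13, Atp5a1 from −0.10 to 0.051, Cox5a from −0.11 to 0.082 and the complex II median from −0.014 to 0.16. The difference in the Atp5g3 share, −0.42 percentage points, was 1.24 per kb of gene length and −1.44 to 1.18 with a library left out. The median of all genes moved with the scaling too. It was −0.014 with TMM, −0.16 with library totals, −0.056 with upper-quartile factors and 0.077 with length offsets. With library totals, Cox8a, Cox7a2l, Uqcrc1, Atp5pb and the complex II median, though negative, lay above the median of all genes. The cause of these shifts was not tested.

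No paired analysis was possible because the table's columns carry animal codes and no replicate number of the labels. The labels number the replicates within each group and do not state that a formoterol mouse was paired with a vehicle mouse. The groups were therefore compared as separate mice. Counts of Cox5b, and to a lesser degree Atp5pb (6 to 24 counts a library in its copy), may be divided with near-identical copies. The isoforms Cox4i2, Cox6a2, Cox6b2 and Cox8b held 0 to 12 counts a library, too few to compare groups.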
